A study of Mus musculus with 15 samples.

Results

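The epidermal differentiation complex is a cluster of genes whose products build the outermost, dead layers of the epidermis. The genes described here were chosen by symbol, as every gene of the files whose name begins with Lce or Sprr together with *Lor*, *Ivl*, *Crct1*, *Flg2*, *Hrnr*, *Rptn*, *Crnn*, *Tchh* and *Tchhl1*, and this gave 41 of the 21110 genes measured. They fell into 18 Lce (late cornified envelope) genes, 14 Sprr (small proline-rich protein) genes, 6 genes of the fused S100 type (*Flg2*, *Hrnr*, *Rptn*, *Crnn*, *Tchh* and *Tchhl1*) and 3 single genes (*Lor*, *Ivl* and *Crct1*). *Flg* was not analysed here.

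As keratinocytes move up through the epidermis they replace the plasma membrane with a cornified envelope, in which transglutaminases cross-link loricrin, involucrin, small proline-rich proteins and late cornified envelope proteins into an insoluble shell. Fused S100-type proteins join a calcium-binding S100 domain to long repeats, and they associate with keratin filaments and with the envelope. Trichohyalin, the product of *Tchh*, is best known from the inner root sheath and medulla of the hair follicle rather than from the surface epidermis. SOCS3, which was deleted here, is an inhibitor of the JAK-STAT signalling that follows cytokines such as interleukin-6.

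Transcript levels were measured by RNA-Seq in ear tissue of C57BL/6 mice of 2 ages and 2 genotypes. The wild type was represented by 4 mice at 2 weeks of age and 3 mice at 10 weeks, and mice lacking *Socs3* in keratin 5-expressing keratinocytes (*Socs3* cKO) by 4 mice at each age. The deletion was driven by a keratin 5-specific Cre, which acts in basal keratinocytes and their descendants, hair follicle cells included, and not in the dermis, cartilage, muscle or blood cells that an ear also holds. The labels name keratinocytes as the source, whereas RNA was extracted from ear specimens, and markers of fibroblasts, muscle, fat and cartilage were present in every mouse. Levels are given as FPKM, fragments counted per transcript length and per library size. Comparison between genes depends on the transcript length assumed for each. The files hold no read counts, so the depth of each library is unknown and no counting interval can be given. Every group has its own run of library numbers in the labels, and a difference in library handling and a difference in genotype or age cannot be told apart.

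As a check of the labels, *Socs3* itself was not clearly lower in *Socs3* cKO mice at 2 weeks and was higher at 10 weeks. It lay at 9.71, 10.2, 10.3 and 10.3 FPKM in the 2-week wild type and at 1.25, 9.32, 12.6 and 3.51 FPKM in 2-week *Socs3* cKO mice, and at 2.02 to 4.81 FPKM in the wild type and 29.8 to 47.7 FPKM in *Socs3* cKO mice at 10 weeks. By limma, described below, the log2 difference of *Socs3* cKO minus wild type was −1.06 at 2 weeks (adjusted p = 0.18). At 10 weeks it was 3.54 (adjusted p = 7.2e-05). The level of a gene with a deleted part does not by itself show the deletion, and genotypes are given as labelled. Several libraries stood apart in the genes of interest. The first 10-week wild-type mouse was the highest of its group for 34 of the 36 members that reached 1 FPKM there, and exceeded the other two by 1.53 to 3.56 times in each of the 13 Lce1 genes. The third 10-week *Socs3* cKO mouse was the highest of its group for all 10 Sprr2 genes, by 4.86 to 54.0 times over the next mouse, and also for the stress keratins *Krt6b* (632 FPKM, others 28.3 to 31.9 FPKM) and *Krt16* (1134 FPKM, others 284 to 306 FPKM). In the first 2-week *Socs3* cKO mouse the suprabasal keratin *Krt10* lay at 432 FPKM, against 2937 to 3898 FPKM in the other 3. For the genes given by mouse, calls that changed when 1 of these mice was left out are named below.

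Of the 41 genes, 40 were found in the mm9 annotation (GENCODE M1), all on chromosome 3 between 91884197 and 93275902, a stretch of 1.39 Mb. *Lor* lay at one edge (chr3:91884197-91887064, minus strand). The 10 Sprr2 genes followed as 1 block on the plus strand (chr3:92019842-92237847), then *Sprr1b*, *Sprr3*, *Sprr1a* and *Sprr4* on the minus strand, *Ivl* (chr3:92374834-92377637), the Lce genes (*Lce6a*, 12 annotated Lce1 genes and, among them, 4 Lce3 genes at chr3:92729213-92797347), *Crct1* and, at the far edge, the 6 fused S100-type genes in 1 block on the plus strand (chr3:92948709-93275902). *Lce1k* was not in this annotation.

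The families are made of near copies, which matters for 50-base reads. The coding sequences of Lce1 genes shared a median of 84.2% of aligned bases (range 53.7 to 95.7% over 66 pairs), those of the 4 Lce3 genes 97.1% and those of the Sprr2 genes compared 66.3% (21 pairs, *Sprr2e*, *Sprr2f* and *Sprr2g* not among them), while *Sprr1a* and *Sprr1b* shared 78.6%. The opening 60 bases of the coding sequence are shown for a few Lce1, Sprr2 and Sprr1 genes, on mm9 and 5′ to 3′ on the coding strand, to let the degree of resemblance be seen. Capitals mark bases that differ from the first sequence of each set. *Lce1a2* differed from *Lce1a1* at 1 of the 60 bases and *Lce1b* at 3, *Sprr2b* and *Sprr2h* from *Sprr2d* at 3 and 2, and *Sprr1b* from *Sprr1a* at 11.
Lce1a1, chr3:92451028-92451087, minus strand: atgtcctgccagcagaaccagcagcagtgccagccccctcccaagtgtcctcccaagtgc
Lce1a2, chr3:92473116-92473175, minus strand: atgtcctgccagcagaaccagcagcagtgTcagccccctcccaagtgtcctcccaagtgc
Lce1b, chr3:92460087-92460146, minus strand: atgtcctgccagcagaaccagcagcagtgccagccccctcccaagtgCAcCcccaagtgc
Sprr2d, chr3:92144176-92144235, plus strand: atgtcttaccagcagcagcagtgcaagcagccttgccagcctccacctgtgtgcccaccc
Sprr2b, chr3:92121371-92121430, plus strand: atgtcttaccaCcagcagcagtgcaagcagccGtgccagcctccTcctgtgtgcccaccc
Sprr2h, chr3:92190554-92190613, plus strand: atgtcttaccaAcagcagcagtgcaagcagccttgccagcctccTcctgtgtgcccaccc
Sprr1a, chr3:92288555-92288614, minus strand: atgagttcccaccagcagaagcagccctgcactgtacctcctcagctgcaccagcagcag
Sprr1b, chr3:92241430-92241489, minus strand: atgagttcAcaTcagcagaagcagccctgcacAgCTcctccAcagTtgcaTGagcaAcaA

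Reads that lie wholly in a shared stretch cannot be assigned to 1 gene from their sequence. Of all 50-base words of a gene's transcript, 0.0 to 29.2% also occurred elsewhere in the genome for the Lce1 genes, 13.2 to 51.3% for the Lce3 genes and 98.5% for *Sprr2a2*, whose value is therefore uncertain. *Sprr1a*, *Sprr4*, *Lor*, *Lce6a*, *Crct1* and *Tchhl1* had no such word. In *Flg2* the share was 30.0%, and in *Hrnr* 69.7% of words recurred within its own repeats and none elsewhere. Library preparation did not keep strand, so reads of *Rptn* and of the antisense gene *Gm17426*, which overlaps it, cannot be told apart.

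Together the 41 genes held 0.586 to 1.94% of all FPKM in a mouse, and their make-up differed most between the 2-week wild type and the other 3 groups. In the 2-week wild type the Sprr family made up 36.4% ± 2.78 (SD, n = 4) of the summed FPKM of these genes, Lce genes 30.4% ± 1.94, *Lor* 13.5% ± 0.582 and fused S100-type genes 11.0% ± 1.37. In 2-week *Socs3* cKO mice Lce genes made up 70.6% ± 3.07 and the Sprr family 9.53% ± 1.62 (n = 4). In the 10-week wild type the values were 69.9% ± 3.73 for Lce and 3.14% ± 0.291 for Sprr (n = 3), and in 10-week *Socs3* cKO mice 67.7% ± 8.51 and 13.3% ± 8.44 (n = 4). The wide spread in the last group came from the third mouse, in which the Sprr share was 25.9% against 8.05 to 10.0% in the other 3. In the 2-week wild type nearly all of the Sprr share came from *Sprr4* and *Sprr1a*, at 19.98% and 16.1%. The mm9 annotation gives *Sprr4* a transcript of 231 bases, almost all coding, and its FPKM depends on the length assumed.

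**Figure D1:**
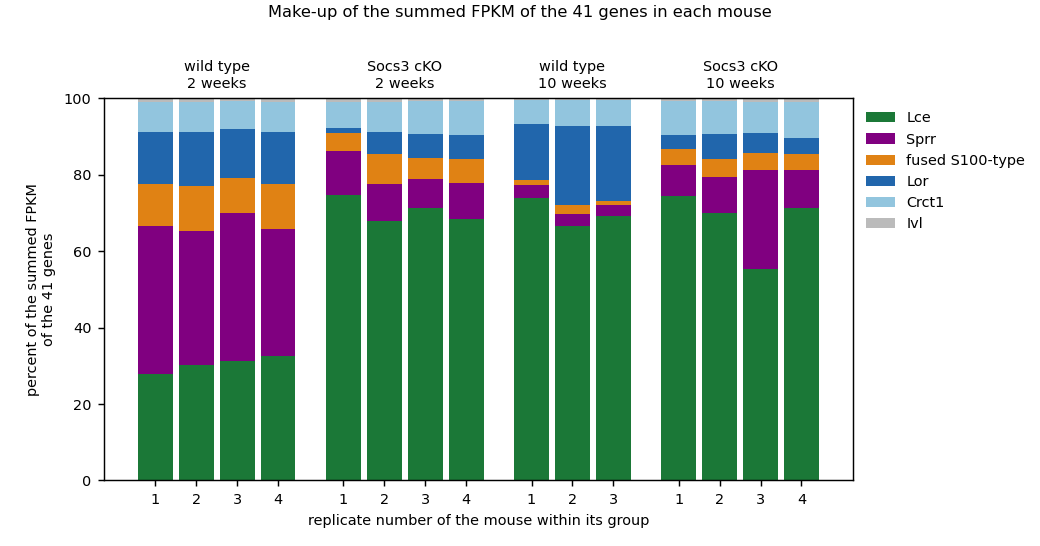
Percent of the summed FPKM of the 41 epidermal differentiation complex genes taken by Lce, Sprr and fused S100-type genes and by *Lor*, *Crct1* and *Ivl*, 1 stacked bar per mouse, grouped by genotype and age. Lce genes take 28.0 to 32.6% in the 4 wild-type mice of 2 weeks and 55.3 to 74.6% in the other 11 mice.

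**Figure D2:**
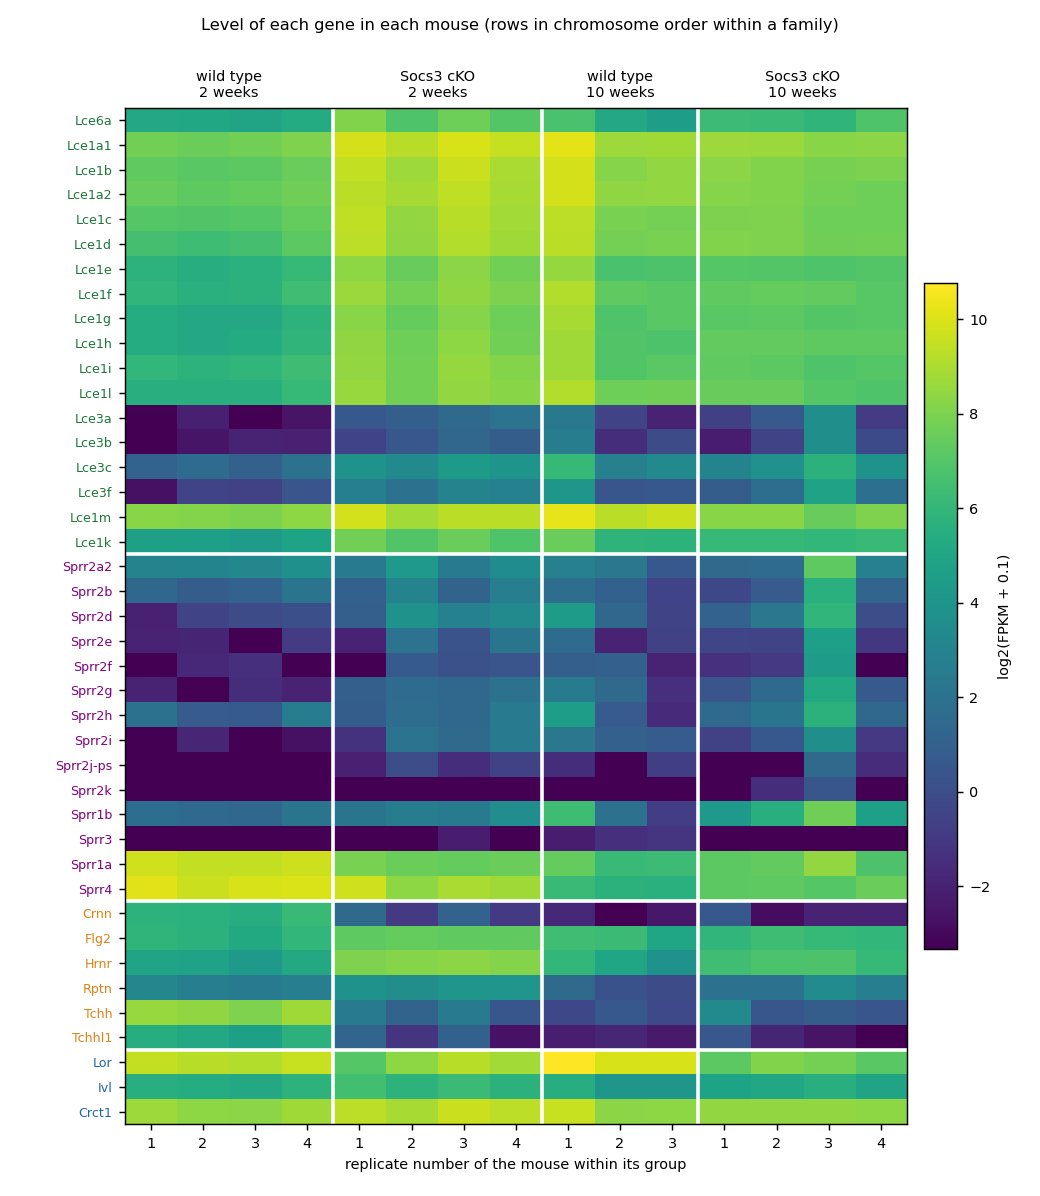
Level of the 41 genes in each of the 15 mice, as log2(FPKM + 0.1) in colour, with rows ordered by family and then by position on chromosome 3, and columns by group. Most Lce1 rows are higher outside the 2-week wild type, the Sprr2 rows are highest in the third 10-week *Socs3* cKO mouse, and *Tchh*, *Tchhl1* and *Crnn* are high only in the 2-week wild type.

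The comparison of *Socs3* cKO with wild-type mice at 2 weeks asked how the levels of these genes differed between the genotypes in young skin. Differences are given as log2(FC) on the log2(FPKM + 0.1) scale with their standard error (SE), which understates the change of genes near 0, and a gene was called up- or down-regulated at an adjusted p below 0.01 and a log2(FC) of at least 1 in size, with adjusted p-values from limma over all genes tested. Genes with at least 1 FPKM in at least 3 mice of a comparison were tested. Of the 38 members tested at 2 weeks, 24 were up-regulated and 4 down-regulated, with a median log2(FC) of 1.90. Among all 13524 genes tested, 7.24% were up-regulated and 7.19% down-regulated, with a median of −0.21. The 3 untested members (*Sprr2j-ps*, *Sprr2k* and *Sprr3*) stayed under 1 FPKM in all 8 mice of this age. The families differed in their counts, with 18 of 18 Lce genes up-regulated, 3 of 11 Sprr genes up- and 1 down-regulated, 3 of 6 fused S100-type genes up- and 3 down-regulated, and none of the 3 single genes called. For 6 members (*Lce3a*, *Lce3b*, *Sprr2e*, *Sprr2f*, *Sprr2g* and *Sprr2i*) every wild-type mouse was under 1 FPKM, so that they entered the test through the *Socs3* cKO mice alone. Among the remaining 32 members, 20 were up-regulated, which included 16 of 16 Lce genes and 1 of 7 Sprr genes.

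**Figure D3:**
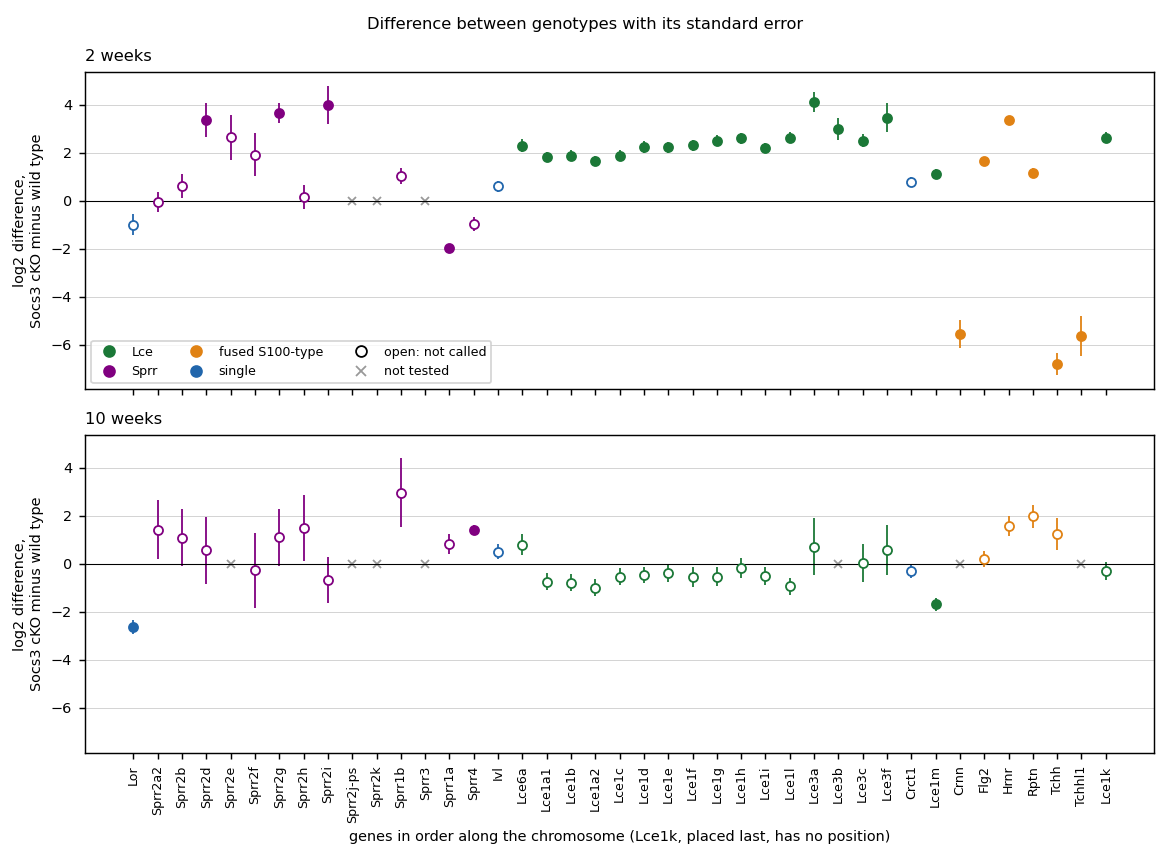
Log2 difference of *Socs3* cKO minus wild type for each member at 2 weeks and at 10 weeks, with SE as bars, in chromosome order and coloured by family. Filled points are called, open points are not, and crosses are genes not tested. The Lce block lies above 0 throughout at 2 weeks (1.11 to 4.11), whereas its Lce1 genes lie at or below −0.18 at 10 weeks.

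All 13 Lce1 genes, which encode cysteine- and glycine-rich envelope proteins of the late granular layer, were up-regulated at 2 weeks, with log2(FC) from 1.11 to 2.63. *Lce1a1*, the Lce1 gene with the highest level in 2-week *Socs3* cKO mice, lay at 221, 197, 219 and 268 FPKM in the wild type and at 915, 609, 980.1 and 742 FPKM in *Socs3* cKO mice (log2(FC) 1.83, SE 0.19, adjusted p = 0.00031). *Lce1l* had the largest difference of this subfamily, with 45.2, 44.9, 45.9 and 68.3 FPKM in the wild type and 383, 219.9, 362 and 306 FPKM in *Socs3* cKO mice (log2(FC) 2.63, SE 0.22, adjusted p = 0.00013). The smallest difference was that of *Lce1m*, at 307, 284, 255 and 335 FPKM in the wild type and 910.0, 449, 629 and 627 FPKM in *Socs3* cKO mice (log2(FC) 1.11, SE 0.22, adjusted p = 0.0061). In each of the 3 genes the genotypes did not overlap. The same held for every member called at 2 weeks, and the exact two-sided permutation p was then 0.0286, the smallest that 4 against 4 mice can give. These members were picked by their calls in the same mice, so the lack of overlap is not separate evidence. The share of all genes without overlap was not counted. Of all 13524 genes tested, 7842 had an unadjusted limma p below 0.05. When levels were centred on 4 epidermal keratins (*Krt1*, *Krt10*, *Krt5* and *Krt14*) *Lce1a1*, *Lce1a2*, *Lce1b*, *Lce1c*, *Lce1d* and *Lce1m* kept their direction (log2(FC) 2.05, 1.89, 2.102, 2.11, 2.45 and 1.33) and lost their calls (adjusted p = 0.017, 0.021, 0.019, 0.020, 0.010 and 0.11). These differences were larger than without centring. Of all genes tested, 279 were up-regulated with centring and 979 without it. In the first *Socs3* cKO mouse *Krt10* was the lowest of its group (432 FPKM) and *Krt14* the highest (4321 FPKM). The reason for the lost calls was not tested. The call of *Lce1m* was lost when any 1 of 7 of the 8 mice was left out (log2(FC) 0.93 to 1.17, adjusted p 0.0015 to 0.024), and held only without the second *Socs3* cKO mouse. The value of 0.93 was that without the first *Socs3* cKO mouse. With no filter, with quantile normalization or with the replicate number in the fit, *Lce1m* was not called either.

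Within the Lce1 genes the size of the difference followed the starting level, a split made after the values were seen. The 5 genes with the highest 2-week wild-type means (*Lce1m*, *Lce1a1*, *Lce1a2*, *Lce1b* and *Lce1c*, 139.7 to 296 FPKM) had log2(FC) of 1.11 to 1.88, and the other 8 (25.3 to 107 FPKM) of 2.21 to 2.63. The wild-type level enters both quantities, and no test was made. *Lce1a2* and *Lce1b*, close copies of *Lce1a1*, lay at 152 to 211 and 141 to 188 FPKM in the wild type and at 472 to 691 and 409 to 797 FPKM in *Socs3* cKO mice. *Lce1c* rose from 123 to 172 FPKM to 359.6 to 696 FPKM, and *Lce1d* from 83.3 to 146 FPKM to 341 to 669 FPKM. At the low end of the subfamily, *Lce1g* lay at 35.7 to 55.5 FPKM against 170.1 to 312 FPKM, *Lce1i* at 55.9 to 83.7 FPKM against 217 to 375 FPKM and *Lce1k* at 21.9 to 29.0 FPKM against 117 to 216 FPKM (log2(FC) 2.496, 2.21 and 2.62).

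The Lce3 genes, whose human counterparts are known for induction in disturbed or psoriatic epidermis, were also up-regulated, from a floor near 0. *Lce3a* lay at 0, 0.132, 0 and 0.0691 FPKM in the wild type and at 1.39, 1.85, 2.85 and 3.97 FPKM in *Socs3* cKO mice (log2(FC) 4.11, SE 0.40, adjusted p = 0.00026). *Lce3b* lay at 0, 0.0729, 0.164 and 0.147 FPKM against 0.615, 1.32, 2.44 and 1.67 FPKM (log2(FC) 2.997, SE 0.45, adjusted p = 0.0020), a call lost with all 4 groups in one fit (adjusted p = 0.025), and it was not tested without the second, the third or the fourth *Socs3* cKO mouse. *Lce3f* lay at 0.0565, 0.640, 0.561 and 1.23 FPKM against 6.78, 3.73, 7.80 and 7.11 FPKM (log2(FC) 3.46, SE 0.60, adjusted p = 0.0036). No *Socs3* cKO mouse overlapped the wild type in these genes, although all levels were low. The call of *Lce3f* was lost without the second or the third wild-type mouse or the third or the fourth *Socs3* cKO mouse (log2(FC) 3.35 to 3.59, adjusted p 0.012 to 0.014). It was also lost with no filter and with the replicate number in the fit. *Lce3f* and *Lce3c* share 174 of their 50-base words. *Lce6a*, which stands alone next to the Lce1 block, rose from 36.1, 33.4, 29.7 and 40.1 FPKM to 274, 117, 201 and 127 FPKM (log2(FC) 2.29, SE 0.27, adjusted p = 0.00063), a call lost with keratin centring (2.51, adjusted p = 0.012).

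The Sprr genes did not move together at 2 weeks. *Sprr1a*, a cross-bridging envelope precursor and the second most abundant member in the 2-week wild type, fell from 875, 715.8, 722 and 823 FPKM to 243, 191, 173 and 192 FPKM in *Socs3* cKO mice (log2(FC) −1.98, SE 0.15, adjusted p = 9.0e-05). Its near copy *Sprr1b* lay far lower, at 3.25, 2.67, 2.54 and 4.18 FPKM against 4.36, 6.28, 5.22 and 11.8 FPKM, and was not called (log2(FC) 1.03, SE 0.32, adjusted p = 0.029). Neither gene overlapped between genotypes, in opposite directions. Keratin centring ended the call of *Sprr1a* (log2(FC) −1.75, adjusted p = 0.030). Without the first *Socs3* cKO mouse, *Sprr1b* passed (log2(FC) 1.21, adjusted p = 0.0068). *Sprr4*, the most abundant of all 41 genes in the 2-week wild type, lay at 1136, 796, 972 and 998 FPKM there and at 852, 326, 513 and 429 FPKM in *Socs3* cKO mice. The groups overlapped through the first *Socs3* cKO mouse and the gene was not called (log2(FC) −0.96, SE 0.28, adjusted p = 0.026), whereas without that mouse it was (log2(FC) −1.22, adjusted p = 0.00097).

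Of the 10 Sprr2 genes, which are known to respond to stress and inflammation in several epithelia, 8 were tested and 3 up-regulated at 2 weeks, all from levels near 0. *Sprr2d* lay at 0.145, 0.654, 0.861 and 1.003 FPKM in the wild type and at 1.83, 14.6, 7.16 and 10.6 FPKM in *Socs3* cKO mice (log2(FC) 3.36, SE 0.70, adjusted p = 0.0073). *Sprr2g*, annotated as a pseudogene in RefSeq, lay at 0.154, 0, 0.263 and 0.160 FPKM against 1.80, 2.97, 2.53 and 3.89 FPKM (log2(FC) 3.66, SE 0.42, adjusted p = 0.00050). *Sprr2i* lay at 0, 0.189, 0 and 0.0577 FPKM against 0.325, 3.96, 2.79 and 5.53 FPKM (log2(FC) 3.98, SE 0.78, adjusted p = 0.0060). The genotypes did not overlap in any of the 3, and the first *Socs3* cKO mouse was the lowest of its group in each. The call of *Sprr2d* was lost when any 1 mouse other than the first *Socs3* cKO mouse was left out (adjusted p 0.011 to 0.023) and with all 4 groups in one fit (adjusted p = 0.027). That of *Sprr2i* was lost when any 1 wild-type mouse was left out (adjusted p 0.013 to 0.022), and without the second, the third or the fourth *Socs3* cKO mouse the gene was not tested, having too few mice at 1 FPKM. The call of *Sprr2g* was kept in all 8 cases. Those of *Sprr2d* and *Sprr2i* were also lost with no filter and when a trend with transcript length and GC content was removed. That of *Sprr2i* was lost with a pseudocount of 1 as well. *Sprr2e* lay at 0 to 0.440 FPKM against 0.151 to 4.42 FPKM and was not called (log2(FC) 2.63, adjusted p = 0.045). Without the first *Socs3* cKO mouse it was (log2(FC) 3.504, adjusted p = 0.0017). *Sprr2a2* at 7.76 to 13.1 FPKM against 5.50 to 18.8 FPKM and *Sprr2h* at 1.4995 to 5.87 FPKM against 1.71 to 5.46 FPKM were the highest Sprr2 genes of the wild type, overlapped between genotypes and had log2(FC) of −0.05 and 0.13 (adjusted p = 0.92 and 0.83).

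The 6 fused S100-type genes lie side by side and split evenly at 2 weeks. *Hrnr* (hornerin, a filaggrin-like repeat protein) rose from 30.3, 28.1, 19.8 and 36.0 FPKM in the wild type to 262, 293, 313 and 282 FPKM in *Socs3* cKO mice, 10.2-fold (log2(FC) 3.36, SE 0.19, adjusted p = 2.9e-05). Its neighbour *Flg2* (filaggrin-2) rose from 58.8, 52.2, 37.4 and 63.0 FPKM to 155, 171, 162 and 163 FPKM (log2(FC) 1.65, SE 0.17, adjusted p = 0.00035). *Rptn* (repetin) rose from 9.16, 6.37, 5.20 and 6.39 FPKM to 14.9, 12.5, 16.2 and 15.9 FPKM (log2(FC) 1.15, SE 0.19, adjusted p = 0.0033). The genotypes did not overlap in these genes, and *Hrnr* passed from below *Flg2* to above it in every *Socs3* cKO mouse. The within-mouse difference of *Hrnr* minus *Flg2* on the log2 scale was −0.89 ± 0.06 in wild-type mice and 0.82 ± 0.09 in *Socs3* cKO mice (SD, n = 4 each). The call of *Rptn* was lost when any 1 wild-type mouse but the first, or the third or the fourth *Socs3* cKO mouse, was left out (log2(FC) 1.03 to 1.13, adjusted p 0.012 to 0.015). It was also lost with keratin centring (1.37, adjusted p = 0.036), all 4 groups in one fit (adjusted p = 0.018) or the replicate number in the fit.

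The other 3 fused S100-type genes fell to near 0. *Tchh* lay at 388, 342, 264 and 438 FPKM in the wild type and at 5.61, 2.15, 5.58 and 1.27 FPKM in *Socs3* cKO mice (log2(FC) −6.80, SE 0.46, adjusted p = 6.2e-05). *Tchhl1* lay at 44.0, 36.5, 25.8 and 53.0 FPKM against 2.31, 0.357, 2.01 and 0.0584 FPKM (log2(FC) −5.63, SE 0.82, adjusted p = 0.0017). *Crnn* (cornulin) lay at 55.7, 50.8, 44.0 and 71.1 FPKM against 2.87, 0.424, 2.09 and 0.420 FPKM (log2(FC) −5.57, SE 0.58, adjusted p = 0.00035). No mouse of either genotype came near the other, and within *Socs3* cKO mice the first and the third were the higher pair in all 3 genes. Markers of the inner root sheath fell beside them, 7 of 7 down-regulated at 2 weeks, with a summed level of 2014 to 2943 FPKM in the wild type and 5.92 to 60.8 FPKM in *Socs3* cKO mice, and among them *Krt71* lay at 729.6 to 1083 FPKM against 1.16 to 18.1 FPKM. Hair shaft keratins fell likewise, 7 of 7, from 601 to 981 FPKM to 1.01 to 11.7 FPKM. In a bulk sample, fewer cells of a type and less RNA per cell cannot be told apart, and the part of hair follicle content in the fall of *Tchh*, *Tchhl1* and *Crnn* was not tested.

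The 3 single genes were not called at 2 weeks. *Lor* (loricrin, the main protein of the envelope by mass) lay at 710.2, 618, 563 and 759 FPKM in the wild type and at 130.3, 337, 603 and 447 FPKM in *Socs3* cKO mice (log2(FC) −0.997, SE 0.42, adjusted p = 0.079). The ranges overlapped through the third *Socs3* cKO mouse, and the direction reversed to 0.65 when a trend with transcript length and GC content was removed. Without the first *Socs3* cKO mouse the log2(FC) was −0.55. *Ivl* (involucrin, an early scaffold of the envelope) lay at 46.9, 41.9, 35.8 and 54.6 FPKM against 92.1, 54.2, 76.4 and 53.3 FPKM (log2(FC) 0.60, SE 0.22, adjusted p = 0.050). *Crct1*, a small cysteine-rich gene inside the Lce block, lay at 417, 337, 322 and 431 FPKM against 661, 486, 800.2 and 657 FPKM, without overlap, and missed both thresholds (log2(FC) 0.78, SE 0.19, adjusted p = 0.013). The within-mouse difference of *Lor* minus the mean of the Lce1 genes was 2.94 ± 0.14 in wild-type mice and −0.19 ± 1.14 in *Socs3* cKO mice on the log2 scale (SD, n = 4 each). The first *Socs3* cKO mouse lay at −1.88 and the others at 0.29 to 0.43.

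**Figure D4:**
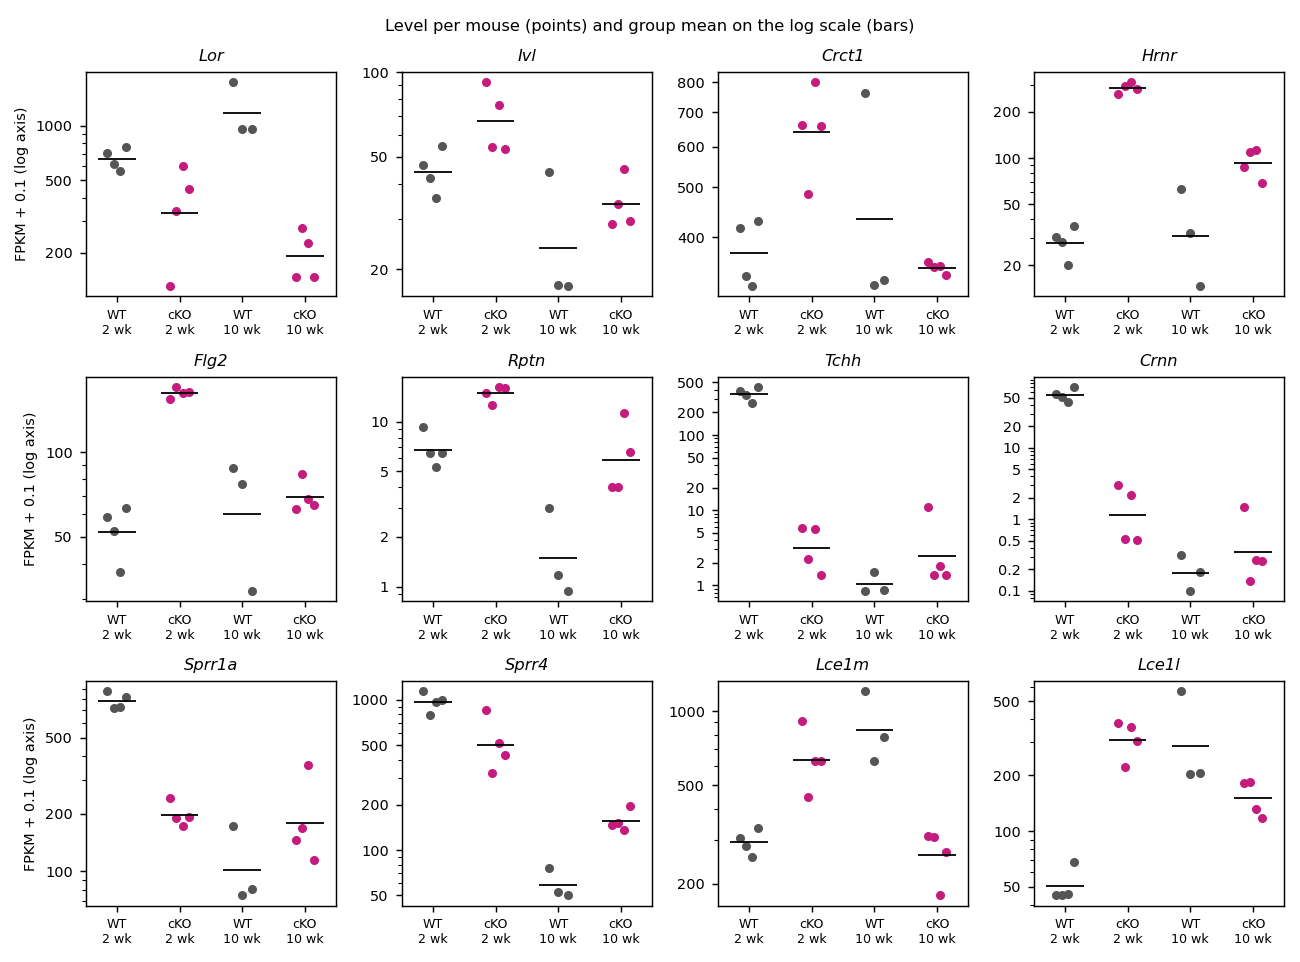
FPKM + 0.1 on a log axis for 12 members, 1 point per mouse and a bar at the group mean on the log scale, for wild type (WT, grey) and *Socs3* cKO (cKO, magenta) at 2 and 10 weeks. *Hrnr* separates the genotypes at 2 weeks (19.8 to 36.0 FPKM against 262 to 313 FPKM), *Lor* at 10 weeks (961 to 1741 FPKM against 146 to 272 FPKM), and *Tchh* is above 200 FPKM only in the 4 wild-type mice of 2 weeks.

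At 10 weeks the comparison asked whether the same genes differed in older skin, with 3 wild-type mice. Further wild-type mice of the study were not analysed here. Of 34 members tested, 1 was up-regulated and 2 were down-regulated, with a median log2(FC) of −0.08, against 12.5% up-regulated and 2.43% down-regulated of 13105 genes tested, with a median of 0.31. The 7 untested members were *Lce3b*, *Sprr2e*, *Sprr2j-ps*, *Sprr2k*, *Sprr3*, *Crnn* and *Tchhl1*. The gene up-regulated was *Sprr4*, at 75.9, 52.8 and 49.8 FPKM in the wild type and 146, 152, 135 and 195 FPKM in *Socs3* cKO mice (log2(FC) 1.41, SE 0.21, adjusted p = 0.0013). The genes down-regulated were *Lor*, at 1741, 961 and 961 FPKM against 147, 272, 224 and 146 FPKM (log2(FC) −2.62, SE 0.31, adjusted p = 0.00045), and *Lce1m*, at 1202, 629.8 and 784 FPKM against 312, 308, 179 and 268 FPKM (log2(FC) −1.69, SE 0.29, adjusted p = 0.0024). None of the 3 overlapped between genotypes, which is not separate evidence from their calls. The smallest p that an exact permutation test of 3 against 4 mice can give is 0.0571. The call of *Lce1m* was lost without the third wild-type mouse (log2(FC) −1.74, adjusted p = 0.012) and with no filter. That of *Sprr4* was lost with keratin centring (log2(FC) 0.61, adjusted p = 0.36).

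*Lor* was the clearest difference of this age. It was 6.16-fold lower in *Socs3* cKO mice, and its share of the summed FPKM of the 41 genes was 14.7 to 20.6% in wild-type mice, against 3.68 to 6.58% in *Socs3* cKO mice, without overlap. The within-mouse difference of *Lor* minus the mean of the Lce1 genes was 2.04 ± 0.41 in wild-type mice (SD, n = 3) and 0.07 ± 0.47 in *Socs3* cKO mice (n = 4). *Lor* held this call without any 1 mouse. *Ivl*, at 44.0, 17.5 and 17.3 FPKM against 28.9, 33.9, 45.3 and 29.5 FPKM, and *Crct1*, at 762, 323 and 331 FPKM against 358, 351, 352 and 337 FPKM, overlapped between genotypes through the first wild-type mouse (log2(FC) 0.51 and −0.31, adjusted p = 0.23 and 0.42).

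The other 12 Lce1 genes had log2(FC) of −0.99 to −0.18 at 10 weeks and none was called. *Lce1a1* lay at 1182, 417 and 432 FPKM in the wild type and at 414, 395, 312 and 318 FPKM in *Socs3* cKO mice (log2(FC) −0.74, SE 0.35, adjusted p = 0.12), and *Lce1l* at 565, 203 and 206 FPKM against 181, 183, 132 and 118 FPKM (log2(FC) −0.93, SE 0.36, adjusted p = 0.064). Although these ranges did not overlap, most of the gap came from the first wild-type mouse. Without it, among the Lce1 genes given here by mouse, the differences of *Lce1d*, *Lce1g*, *Lce1i* and *Lce1k* turned to 0.03, 0.09, 0.05 and 0.30. *Lce1a2* lay at 927, 340.0 and 362 FPKM against 201 to 295 FPKM, *Lce1b* at 928, 297 and 354 FPKM against 234 to 315 FPKM and *Lce1c* at 648, 248 and 229.6 FPKM against 204 to 267 FPKM. *Lce1d* lay at 646, 226 and 246 FPKM against 206 to 278 FPKM, *Lce1g* at 478.02, 119.5 and 142 FPKM against 127 to 149.7 FPKM, *Lce1i* at 435, 125 and 145 FPKM against 118 to 159 FPKM and *Lce1k* at 187, 57.4 and 54.2 FPKM against 64.9 to 72.2 FPKM. The genotypes overlapped in all of these but *Lce1a2*.

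The Lce3 genes and *Lce6a* were not called at 10 weeks and their groups overlapped. *Lce3a* lay at 4.98, 0.650 and 0.163 FPKM in the wild type and 0.538, 1.41, 13.0 and 0.477 FPKM in *Socs3* cKO mice, *Lce3b* at 6.04, 0.255 and 0.857 FPKM against 0.119, 0.628, 12.7 and 0.786 FPKM and *Lce3f* at 17.4, 1.28 and 1.39 FPKM against 1.65, 3.37, 27.2 and 3.40 FPKM. In each of them 1 mouse per genotype, the first wild-type and the third *Socs3* cKO mouse, lay several times above the rest. *Lce6a* lay at 107, 36.4 and 24.2 FPKM against 80.9, 71.4, 58.8 and 116 FPKM (log2(FC) 0.80, SE 0.44, adjusted p = 0.18).

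Among Sprr genes at 10 weeks the spread within *Socs3* cKO mice exceeded most differences. *Sprr1a* lay at 172, 74.8 and 80.7 FPKM in the wild type and at 146, 169, 362 and 114 FPKM in *Socs3* cKO mice (log2(FC) 0.82, SE 0.41, adjusted p = 0.14). *Sprr1b* lay at 85.4, 3.79 and 0.499 FPKM against 18.5, 46.1, 208 and 24.7 FPKM (log2(FC) 2.97, SE 1.42, adjusted p = 0.12). *Sprr2a2* lay at 7.04, 4.79 and 1.35 FPKM against 2.82, 2.99, 157 and 6.91 FPKM (log2(FC) 1.43, SE 1.23, adjusted p = 0.37). The third *Socs3* cKO mouse was highest in each gene, and wild type and *Socs3* cKO overlapped in all 3. The same mouse set the upper end for *Sprr2d* (61.3 FPKM, others 0.944 to 4.92 FPKM), *Sprr2e* (24.5 FPKM, others 0.381 to 0.684 FPKM), *Sprr2g* (38.1 FPKM, others 1.22 to 2.75 FPKM), *Sprr2h* (53.0 FPKM, others 2.47 to 4.38 FPKM) and *Sprr2i* (13.0 FPKM, others 0.409 to 1.36 FPKM). In the wild type these genes lay at 22.1, 2.37 and 0.644 FPKM, 2.92, 0.160 and 0.555 FPKM, 5.29, 2.85 and 0.275 FPKM, 22.6, 1.55 and 0.224 FPKM, and 4.75, 1.89 and 1.64 FPKM. With or without the third *Socs3* cKO mouse the count of members called at 10 weeks was 1 up- and 2 down-regulated.

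Fused S100-type genes at 10 weeks had positive differences that did not reach the call. *Hrnr* lay at 63.1, 32.2 and 14.5 FPKM in the wild type and at 87.2, 109, 114 and 68.1 FPKM in *Socs3* cKO mice (log2(FC) 1.58, SE 0.42, adjusted p = 0.016), and *Rptn* at 2.88, 1.08 and 0.841 FPKM against 3.91, 3.94, 11.1 and 6.45 FPKM (log2(FC) 1.98, SE 0.47, adjusted p = 0.010). In both the genotypes did not overlap, and both were called when the first wild-type mouse was left out (log2(FC) 2.09, adjusted p = 0.0049 for *Hrnr* and 2.48, adjusted p = 0.0068 for *Rptn*). *Flg2* overlapped, with 87.8, 77.1 and 31.9 FPKM against 62.4, 83.6, 68.1 and 64.8 FPKM (log2(FC) 0.21, SE 0.32, adjusted p = 0.63). *Hrnr* again lay below *Flg2* in every wild-type mouse and above it in every *Socs3* cKO mouse, with within-mouse differences of −0.96 ± 0.42 (SD, n = 3) and 0.42 ± 0.28 (n = 4) on the log2 scale. *Tchh* was near 0 in both genotypes, at 0.745, 1.40 and 0.765 FPKM against 10.8, 1.28, 1.70 and 1.26 FPKM (adjusted p = 0.16), as were *Tchhl1* (0.0989 to 0.190 FPKM against 0 to 1.30 FPKM) and *Crnn* (0 to 0.213 FPKM against 0.0392 to 1.36 FPKM). The first *Socs3* cKO mouse was the highest for all 3, and in it the inner root sheath keratins *Krt25* and *Krt71* lay at 23.7 and 22.7 FPKM, against 0.306 to 3.15 FPKM in the other 3.

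Whether the effect of genotype depended on age was tested as the interaction, the log2(FC) at 10 weeks minus that at 2 weeks, in 1 fit over all 15 mice, which are the same mice as above. Of 38 members tested, the interaction was called positive for 5 and negative for 14, with a median of −2.44, against 18.0% positive and 6.55% negative of 13937 genes tested and a median of 0.55. The negative calls were all 13 Lce1 genes (−3.56 to −2.41), led by *Lce1l* (−3.56, SE 0.45, adjusted p = 9.0e-05), and *Flg2* (−1.44, SE 0.38, adjusted p = 0.0085). The positive calls were *Sprr1a* (2.80, SE 0.47, adjusted p = 0.00067), *Sprr4* (2.37, SE 0.37, adjusted p = 0.00043), *Tchh* (8.06, SE 0.88, adjusted p = 3.3e-05), *Crnn* (6.50, SE 1.02, adjusted p = 0.00043) and *Tchhl1* (5.89, SE 1.23, adjusted p = 0.0024). The sign was thus negative for the Lce1 genes and positive for both of the most abundant Sprr genes. *Tchh*, *Crnn* and *Tchhl1* lay near 0 in both genotypes at 10 weeks, and *Crnn* and *Tchhl1* were not tested there. Their positive interactions restate the fall at 2 weeks and show no effect of genotype at 10 weeks. Neither the 4 Lce3 genes, nor the 8 Sprr2 genes tested, nor *Lor*, *Ivl* and *Crct1* showed an interaction that passed. With keratin centring *Sprr1a* (1.77, adjusted p = 0.060), *Sprr4* (1.34, adjusted p = 0.22) and *Tchhl1* (4.86, adjusted p = 0.021) were not called. *Flg2* lost its call when any 1 of 13 of the 15 mice was left out (−1.54 to −1.17, adjusted p 0.011 to 0.028), and held only without the third 10-week wild-type or the first 2-week *Socs3* cKO mouse.

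The age comparison within each genotype shows which side of each difference moved. In the wild type, from 2 to 10 weeks, 15 of 38 members were higher and 6 lower, against 6.18% higher and 19.4% lower of all 13937 genes tested. The 15 were the 13 Lce1 genes (log2 difference 1.27 to 2.51), *Lce3c* (2.69) and *Sprr2i* (4.13). The 6 were *Sprr4*, which fell by 4.05 on the log2 scale (SE 0.27, adjusted p = 1.7e-07), *Sprr1a* (−2.95), *Rptn* (−2.18), *Tchh* (−8.42), *Tchhl1* (−7.35) and *Crnn* (−8.25). For *Sprr4* this was a change from 796 to 1136 FPKM at 2 weeks to 49.8 to 75.9 FPKM at 10 weeks, 16.5-fold. Without the first 10-week wild-type mouse, *Lce1a1*, *Lce1a2*, *Lce1c*, *Lce3c* and *Sprr2i* were no longer called (0.92, 0.98, 0.79, 1.68 and 3.67), while the other 10 members that had risen remained. Leaving out the first, the second or the third 2-week wild-type mouse also cost the calls of *Lce1c* (1.24, 1.21 and 1.24) and *Lce3c* (2.59, 2.76 and 2.56), and *Sprr2i* lost its call without the first, the third or the fourth 2-week mouse (3.95, 3.95 and 4.17) or the third 10-week mouse (4.41).

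In *Socs3* cKO mice, from 2 to 10 weeks, no member was higher and 4 were lower, against 2.01% higher and 1.53% lower of all genes tested. These were *Sprr4* (−1.68, SE 0.25, adjusted p = 0.00074), *Flg2* (−1.23, SE 0.26, adjusted p = 0.0082), *Hrnr* (−1.63, SE 0.34, adjusted p = 0.0071) and *Lce1m* (−1.28, SE 0.25, adjusted p = 0.0049). The remaining 12 Lce1 genes had differences of −1.21 to −0.73 and were not called. Of the 4, *Sprr4* alone kept its call whichever mouse was left out, and with keratin centring none of them was called. *Flg2* lost it in all 8 cases (adjusted p 0.011 to 0.028), *Hrnr* in all but the case without the first 2-week mouse (0.011 to 0.023), and *Lce1m* without the third or the fourth 2-week mouse or any 10-week mouse but the first (0.010 to 0.019). As these 2 age comparisons share their mice with the genotype comparisons, they restate the same levels from another side and are not separate evidence.

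Promoter sequences of 37 members were matched in RefSeq (GRCm38.p6), and entries for *Crct1*, *Lce1f*, *Sprr2g* and *Sprr2j-ps* were not among them. The 200 bases before the annotated start are shown, 5′ to 3′ on the gene's strand, for 5 genes whose levels moved in different ways: *Lor* and *Sprr1a* (abundant, and lower in *Socs3* cKO at one age), *Sprr4* (higher at 10 weeks), *Sprr2d* (raised from near 0) and *Lce1a1* (raised at 2 weeks). Capitals mark the AP-1 motif TGANTCA on either strand and the TATA motif TATAAA on the gene's strand.
Lor, chr3:92083143-92083342, minus strand: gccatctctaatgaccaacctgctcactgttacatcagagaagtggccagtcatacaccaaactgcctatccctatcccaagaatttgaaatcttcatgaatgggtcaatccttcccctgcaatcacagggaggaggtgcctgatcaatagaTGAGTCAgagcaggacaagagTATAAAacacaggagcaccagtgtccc
Sprr1a, chr3:92485882-92486081, minus strand: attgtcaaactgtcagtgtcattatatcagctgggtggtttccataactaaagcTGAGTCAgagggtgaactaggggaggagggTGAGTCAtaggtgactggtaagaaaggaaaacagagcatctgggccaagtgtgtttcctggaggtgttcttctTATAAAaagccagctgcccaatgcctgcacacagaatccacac
Sprr4, chr3:92500494-92500693, minus strand: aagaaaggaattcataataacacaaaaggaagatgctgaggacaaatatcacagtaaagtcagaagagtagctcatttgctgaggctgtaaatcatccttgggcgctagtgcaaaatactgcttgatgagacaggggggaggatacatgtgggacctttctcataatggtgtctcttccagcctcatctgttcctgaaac
Sprr2d, chr3:92338940-92339139, plus strand: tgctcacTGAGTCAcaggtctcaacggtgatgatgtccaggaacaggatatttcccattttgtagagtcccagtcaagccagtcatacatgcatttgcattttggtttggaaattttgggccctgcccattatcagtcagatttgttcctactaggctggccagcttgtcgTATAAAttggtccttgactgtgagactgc
Lce1a1, chr3:92648308-92648507, minus strand: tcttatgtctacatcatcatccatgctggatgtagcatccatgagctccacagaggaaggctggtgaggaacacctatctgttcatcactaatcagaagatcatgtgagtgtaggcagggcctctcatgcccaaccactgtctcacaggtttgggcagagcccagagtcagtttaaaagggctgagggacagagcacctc

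In *Lor* an AP-1 motif began 48 bases and a TATA motif 27 bases before the start, in *Sprr1a* they began at 146 and 116 and at 43 bases, and in *Sprr2d* at 193 and at 29 bases. Neither motif was found in the windows of *Sprr4* and *Lce1a1*. In the mm9 annotation the transcripts of *Sprr4* and *Tchh* begin at the start codon, with no untranslated bases before it. The windows of these genes may therefore not be promoters, and they are among those counted next. In windows of 250 bases, AP-1 motifs were present in 9 of 12 Sprr genes (7 of 8 Sprr2), 4 of 6 fused S100-type genes, both *Lor* and *Ivl* and 0 of 17 Lce genes, against 6.9% of 27025 promoters. TATA motifs were present in 10 of 12 Sprr, 3 of 6 fused S100-type and 2 of 17 Lce genes, against 8.1%. The motif TTCNNNGAA, bound by STAT factors and searched likewise on both strands, was present in 1 of 37 members (*Lce1l*), against 7.2%. Members of 1 family are copies of each other and not independent, a match is a description of letters and not a bound site, and the build differs from that of the files.

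Other genes that act on the same structures were read from lists. Of 22 other cornification genes tested at 2 weeks, 7 were up- and 3 down-regulated, against 7.24% and 7.19% of all genes. Of 19 at 10 weeks 3 were up- and none down-regulated, a share near the 12.5% of all genes that were up-regulated at that age. Those that fell at 2 weeks were the peptidylarginine deiminases *Padi3* (log2(FC) −7.50), *Padi1* (−4.45) and *Padi4* (−3.09), enzymes that citrullinate proteins. *Padi3* lay at 45.4 to 61.4 FPKM in the wild type and 0.0570 to 0.395 FPKM in *Socs3* cKO mice. Those that rose included *Csta* (cystatin A, 2.51), the lipid transporter *Abca12* (1.83) and *Kprp*, a keratinocyte proline-rich protein encoded in the same complex (1.18). At 10 weeks *Abca12* (2.93), the antibacterial *Pglyrp3* (2.31) and the transglutaminase *Tgm5* (1.06) were up-regulated. Of 16 regulators of late differentiation tested at 2 weeks none was up-regulated and *Fosl2* was down-regulated (−1.49). Of 17 at 10 weeks 6 were up-regulated, namely the AP-1 subunits *Fosl1* (7.98), *Fos* (5.22), *Junb* (3.48), *Jun* (2.41) and *Fosl2* (2.01) and the transcription factor *Grhl3* (1.85), and *Gata3* was down-regulated (−1.77).

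Markers of epidermal layers and of other cells moved with genotype as well. None of the 3 suprabasal keratins was called at either age, while *Krt14*, of the basal layer, was up-regulated at 2 weeks (log2(FC) 1.02) and the other basal keratins *Krt5* and *Krt15* had log2(FC) of −0.39 and −0.64 (adjusted p = 0.38 and 0.0080) and were not called, the latter for its size. Among 4 stress keratins, *Krt17* (−1.24) and *Krt6a* (−1.08) were down-regulated at 2 weeks and *Krt6a* (2.90) and *Krt16* (2.35) were up-regulated at 10 weeks. Summed sebocyte markers lay at 363 to 395 FPKM in the 2-week wild type and at 1093 to 1905 FPKM in 2-week *Socs3* cKO mice, with 4 of 6 up-regulated, and summed leukocyte markers at 411 to 476.4 FPKM and 737 to 807 FPKM at 10 weeks, with 4 of 7 up-regulated. *Scd1* made up most of the sebocyte sum (262 to 294 FPKM against 886 to 1587 FPKM). *Cd74*, which was not called, made up most of the leukocyte sum (349 to 427 FPKM against 621 to 704 FPKM). Of all genes tested, 7.24% were up- and 7.19% down-regulated at 2 weeks, and 12.5% and 2.43% at 10 weeks. Skeletal muscle markers were up-regulated in 3 of 5 cases at 2 weeks (602 to 916 FPKM against 1418 to 2802 FPKM), and at 10 weeks the genotypes did not overlap in their sum (669 to 1143 FPKM against 333 to 612 FPKM), with 1 of 5, *Mylpf*, down-regulated. Fibroblast markers at 2 weeks were down-regulated in 3 of 5 and up-regulated in 1 (12360 to 14520 FPKM against 4737 to 6676 FPKM). Adipocyte markers were called in 0 of 4 cases at 2 weeks and 1 of 4 at 10 weeks, and cartilage markers in 1 of 3 (lower) and 0 of 3. Among the genes of these lists, *Matn1* of the cartilage list was at 0 in all 8 mice of 2 weeks. The part of these shifts in the differences of the 41 genes was not tested.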

How the data were processed

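The authors sequenced ear RNA (TruSeq, unstranded, single 50-base reads), of which 15 mice are analysed here. Per the labels and the submitters' processing notes, reads were aligned to mm9 with TopHat2 2.1.0 and quantified with Cufflinks, and the authors deposited 1 table of FPKM per mouse (21110 genes). FPKM carry no counts, so depth is unknown. No 2 libraries held the same values.

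Values were analysed as log2(FPKM + 0.1) with limma 3.58.1 (R 4.3.3, trended prior variance) and Benjamini-Hochberg adjustment over all genes tested. Genotypes were compared within each age, and the interaction and age comparisons came from 1 fit of all 4 groups. The fit was tested on simulated data. Labels give replicates by number only, so p-values measure the spread between these samples, which may be technical.

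The members and gene lists were chosen with earlier results of these data known. Members named by mouse were the single and fused S100-type genes and, among Lce and among Sprr genes, the 4 with the largest difference at each age, the 2 with the highest mean and up to 6 more called for the interaction. Lists covered cornification, regulators, keratins of epidermal layers and stress, inner root sheath, hair shaft, sebocytes, leukocytes, muscle, cartilage, adipocytes and fibroblasts. Alternatives were other pseudocounts, filters, scalings, thresholds, prior variance, removal of length and GC trends, only members with few repeated words, the replicate block and leaving out each mouse. Identity, repeats and motifs were computed with Biopython 1.88 from GENCODE M1 and RefSeq.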

Additional observations from a re-analysis of the deposited data

Results flagged for a closer look

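In 4 cases 1 mouse stood far from the other 3 of its group. Lce1l lay at 68.3 FPKM in the fourth 2-week wild-type mouse (others 44.9 to 45.9 FPKM). Sprr2e lay at 24.5 FPKM in the third 10-week *Socs3* cKO mouse (others 0.381 to 0.684 FPKM), the mouse that was highest for all 10 Sprr2 genes. Sprr2f was listed at 0 in the first 2-week *Socs3* cKO mouse (others 1.03 to 1.49 FPKM). Tchh lay at 10.8 FPKM in the first 10-week *Socs3* cKO mouse (others 1.26 to 1.70 FPKM). Chance alone flags about 1 in 20 groups. The rule was run on 32 members in the 2-week wild type, 38 in 2-week *Socs3* cKO mice and 40 in 10-week *Socs3* cKO mice. The 4 cases are not more than chance alone would flag. The 10-week wild type, with 3 mice, was not checked by this rule.

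In 19 members the genotype difference itself differed between the ages by the interaction test in limma, given here as the log2 difference at 10 weeks minus that at 2 weeks. It was negative for the 13 Lce1 genes, at −2.57 for Lce1a1, −2.65 for Lce1a2, −2.66 for Lce1b, −2.41 for Lce1c, −2.68 for Lce1d, −2.60 for Lce1e, −2.86 for Lce1f, −3.03 for Lce1g, −2.77 for Lce1h, −2.72 for Lce1i, −2.90 for Lce1k, −3.56 for Lce1l and −2.79 for Lce1m, and also for Flg2 (−1.44). It was positive for Tchh (8.06), Crnn (6.50), Tchhl1 (5.89), Sprr1a (2.80) and Sprr4 (2.37). The 4 mice of each 2-week group and the 3 and 4 mice of the 10-week groups enter every one of these values.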

How the results depend on the processing

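Depth is unknown, near copies share reads, and library numbers follow the groups. The 10-week wild-type libraries listed fewer genes at 0 FPKM than all others. Median-of-ratios scaling shifted the median log2(FC) of all genes tested, which was −0.21 at 2 weeks and 0.31 at 10 weeks, to −0.0087 and 0.058. Counts of members called at 2 weeks, for the interaction and for the wild-type age comparison stayed within 1.5 times under the alternatives run. Up-regulated members at 10 weeks (1) became 3 at an adjusted p below 0.05, 2 with a pseudocount of 1, 2 when every sample of a group had to reach 1 FPKM and 3 with all 4 groups in one fit. Down-regulated members at 10 weeks (2) became 4 when centred on 4 epidermal keratins. Members called between ages in *Socs3* cKO (4) became 13 at an adjusted p below 0.05, 1 with no filter, 9 with the length and GC trend removed and 0 when centred on keratins. Leaving out 1 mouse gave 18 to 26 up- and 4 to 5 down-regulated at 2 weeks, 1 to 3 and 1 to 2 at 10 weeks, 18 to 22 for the interaction, 17 to 21 for age in the wild type and 1 to 3 for age in *Socs3* cKO. The causes were not tested.

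Some directions reversed, none of them of a called value. At 2 weeks Lor turned to 0.65 and Sprr2h to −0.44 with the length and GC trend removed, and Sprr2a2 to 0.15, 0.34 and 0.18 under median-of-ratios scaling, quantile normalization and keratin centring. At 10 weeks removing that trend turned Crct1 to 0.10 and Flg2 to −0.58, median-of-ratios scaling turned Flg2 to −0.054, and keratin centring turned Flg2 to −0.60, Ivl to −0.29, Lce3a to −0.087, Lce3f to −0.23, Lce6a to −0.004 and Sprr2d to −0.23. Leaving out 1 mouse gave −0.40 to 0.19 for Sprr2a2 and −0.16 to 0.50 for Sprr2h at 2 weeks. At 10 weeks it gave −0.52 to 0.10 for Crct1, −0.25 to 0.48 for Flg2, −0.25 to 1.22 for Lce3a, −0.25 to 1.78 for Lce3f, −0.62 to 1.92 for Sprr2d and −0.032 to 1.89 for Sprr2g. It gave −0.73 to 0.026 for Lce1d, −0.91 to 0.094 for Lce1g, −0.85 to 0.048 for Lce1i and −0.59 to 0.30 for Lce1k. Of the other values for single genes, 47 lost and 16 gained a call under settings other than leaving out a mouse, and 1118 did neither.

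Deviations of same-numbered mice from their group means correlated at −0.057 to 0.057 at 2 weeks and −0.203 to 0.036 at 10 weeks. Mice with different numbers gave −0.142 to 0.091 and −0.211 to 0.156. With so few mice per group these values cannot decide whether the numbers pair the samples. With the replicate block the counts were 21 up- and 4 down-regulated at 2 weeks, 1 and 2 at 10 weeks, 19 for the interaction, 20 for age in the wild type and 3 for age in *Socs3* cKO.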
